A study of Rattus norvegicus with 6 samples.

Results

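The genes described here are the rat kidney's interstitial fibrillar collagens and small proteoglycans, with the enzyme and the microfibril protein that act on or beside their fibrils: Col1a1, Col1a2, Col3a1, Col5a1, Col5a2, Dcn, Lum, Bgn, Lox and Fbn1. They were taken as the probe sets whose only gene symbol in the array annotation is one of these names, which gave 10 genes on 16 probe sets, out of 14217 named genes on the array. Each gene is represented by its probe set of highest mean signal over the 6 kidneys, and the second probe sets of Col1a1, Col1a2, Col5a1, Col5a2, Lox and Fbn1 serve as a check. All 10 main probe sets passed a filter on low signals that kept the upper 50% of probe sets by mean over all kidneys, which left 15521 probe sets and 9334 genes to test.

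Kidney RNA of adult male rats was hybridised to Affymetrix arrays, 1 array per rat. The congenic group held 3 rats of the strain S.LEW(D1MCO4x1x3Bx1), whose name denotes a Lewis rat segment, marked on chromosome 1, on the background of the S strain. The other group held 3 rats of that S strain, the inbred Dahl salt-sensitive rat (SS/Jr), which develops salt-induced high blood pressure. By its title the series belongs to work on Adamts16 and inherited hypertension, and none of the 10 genes lies on the chromosome of Adamts16 in the GRCr8 gene table (0 of 10). Each group is 1 inbred strain. Replicate numbers follow the order in which the samples are listed and do not match rats between strains. The array titles open with the numbers 4, 13 and 14 for S replicates 1 to 3 and 7, 9 and 15 for congenic replicates 1 to 3. The meaning of these title numbers is not stated. Neither the diet nor the exact age of the rats is stated in the sources used here, and the labels name the tissue only as kidney.

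Collagens I, III and V assemble outside the cell into the fibrils that give the space between tubules and vessels its tensile strength. Collagen V starts and limits fibril growth, small leucine-rich proteoglycans coat the fibril surface, and lysyl oxidase joins the chains by cross-links. In the kidney these proteins come mainly from fibroblasts and other perivascular mesenchymal cells, and their build-up is the defining feature of renal fibrosis.

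Values are scaled signals (intensity on a linear scale) and differences are log2 congenic minus S, with a standard error (SE) from limma. Median signals per array lay between 162 and 174 in congenic and between 170.4 and 178 in S kidneys. The 3' to 5' signal ratio of the beta-actin control, which reports on RNA integrity, was 1.94 to 2.06 in congenic and 1.99 to 2.30 in S kidneys. That of GAPDH was 1.12 to 1.20 in congenic and 1.11 to 1.18 in S kidneys. That of hexokinase differed more between arrays, at 2.09, 2.33 and 2.78 in congenic replicates 1 to 3, against 1.83, 2.35 and 2.74 in S replicates 1 to 3. Of 12 kidney epithelium markers, 11 had a probe set and 11 passed the filter. In tissue RNA, fewer cells of a type cannot be told apart from less RNA per cell.

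No member was called different between the strains. At an adjusted p of 0.05 in limma the members called numbered 0 of 10, as did the probe sets called over the whole array (0 of 15521, 0%, smallest adjusted p = 0.0697). The count over the array was 41 when S replicate 1 was left out, 6 and 3 when congenic replicate 1 or congenic replicate 3 was, and 9 with arrays centred on the median, with 0 members among the calls each time. At an unadjusted p of 0.05 the count was 0 of 10 as well, where 10.3% of all probe sets tested passed (4.72% higher and 5.61% lower in congenic kidneys). Counted once per gene by the main probe set, as the members are, 5.55% of all genes tested were higher and 4.84% lower. Congenic and S values did not overlap for 1 of the 10, Lox, against 16% of all probe sets in either direction, 7.98% with congenic above S and 7.99% with congenic below S. By gene, 9.59% had congenic above S and 7.45% had congenic below S. The log2 difference was below 0 for 6 of the 10 genes (47.6% of all genes tested, 51.8% of all probe sets). Its median over the 10 was -0.06, beside 0.01 over all genes tested. With S replicate 1 left out that median was 0.05, and with arrays centred on the median it was 0.01.

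**Figure D1:**
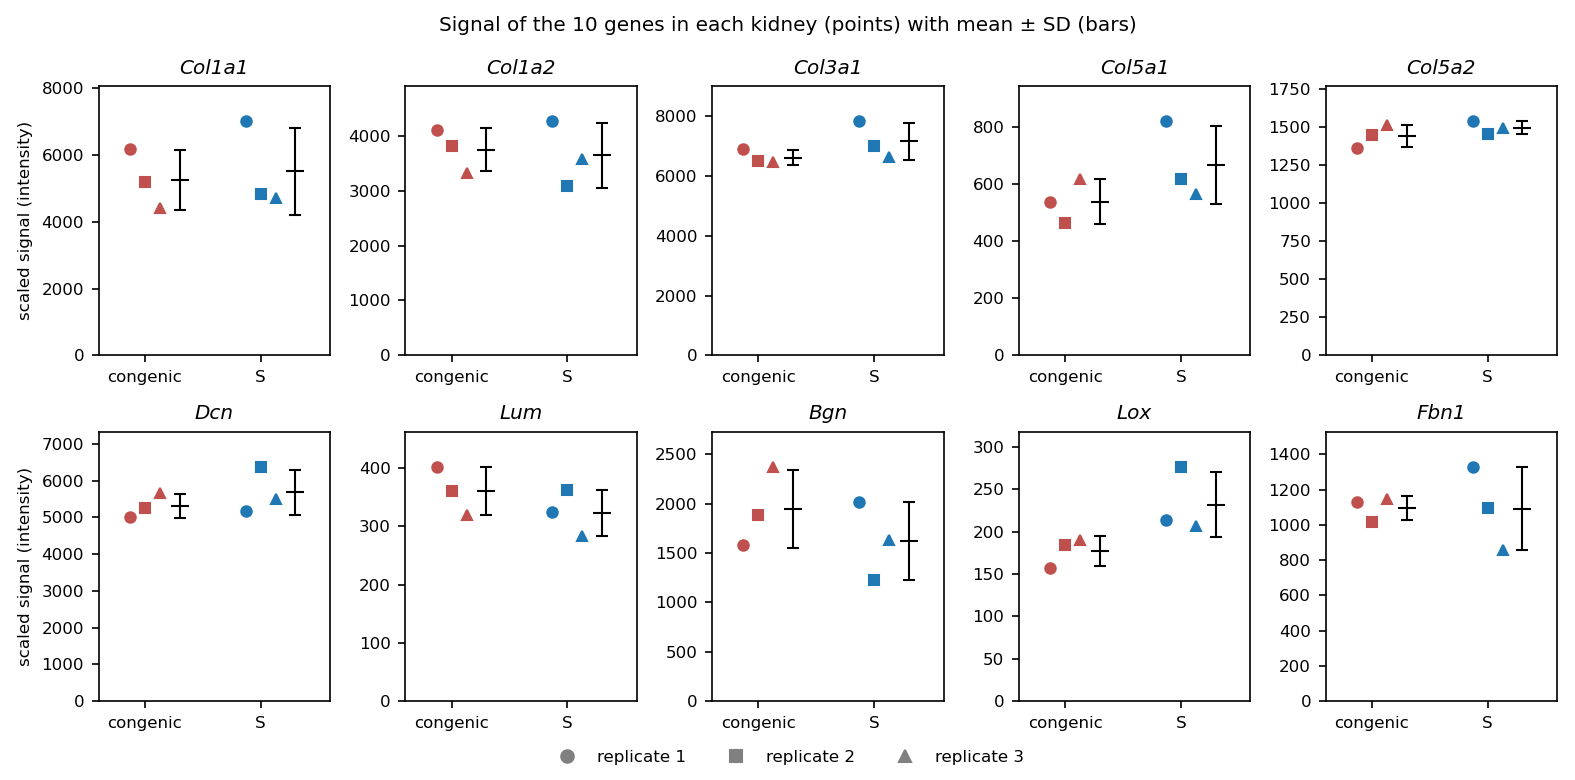
Scaled signal (y axes, linear, from 0) of each of the 10 genes in 3 congenic kidneys (left, red) and 3 S kidneys (right, blue); marker shape gives the replicate and black bars the mean ± SD. Congenic and S values overlap in every panel except that of Lox, where congenic signals run from 157 to 189.9 and S signals from 206 to 276.

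Collagen I is built from the chains of Col1a1 and Col1a2. Col1a1 read 6172, 5184 and 4399.9 in congenic kidneys, against 7016, 4824 and 4707 in S kidneys. Its means were 5252 ± 888 in congenic and 5516 ± 1301 in S kidneys (SD, n = 3 each). The highest signal of either strain belonged to replicate 1, and the groups overlapped. The log2 difference was -0.06 (SE 0.14), with a 95% interval of 0.78 to 1.18 for the congenic to S ratio. Col1a2 read 4099, 3822 and 3328 in congenic kidneys, against 4268, 3084 and 3575 in S kidneys. Its log2 difference was 0.05 (SE 0.11) with a 95% interval of 0.88 to 1.22 for the ratio. The sign of Col1a1 was not stable: its log2 difference was 0.13 when S replicate 1 was left out, 0.06 when congenic replicate 3 was, and 0.01 after centring on the median. The second probe sets of both genes followed the first across the 6 kidneys (r = 0.89 and 0.88) and had log2 differences of -0.08 and 0.04. In the order of the array title numbers over both strains, the main probe set of Col1a1 fell and the hexokinase ratio rose at every step. Col1a2 and the second probe set of Col1a1 did not fall at every step. This order was looked at after the values were seen, and the part of array quality or order was not tested.

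Col3a1 encodes the homotrimeric collagen that is laid down with collagen I in compliant tissue. It read 6891, 6483 and 6459 in congenic kidneys, against 7832, 7011 and 6620.2 in S kidneys. Congenic replicate 1 exceeded S replicate 3, so the groups overlapped by that pair alone. The log2 difference was -0.11 (SE 0.08), adjusted p = 0.658 in limma, and -0.04 without S replicate 1. The 95% interval of the ratio was 0.82 to 1.05.

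Col5a1 and Col5a2 encode chains of collagen V. Col5a1 read 536, 461 and 616 in congenic kidneys, against 819, 616 and 563 in S kidneys, or 538 ± 77.3 and 666 ± 135 (SD, n = 3 each). S replicate 1 lay above all others and the remaining kidneys of both strains were interleaved. The log2 difference was -0.30 (SE 0.16), with a 95% interval of 0.64 to 1.03 for the ratio and adjusted p = 0.536 in limma; without S replicate 1 it was -0.14. Its second probe set had a log2 difference of -0.19 and correlated with the first at r = 0.63 over the 6 kidneys. Col5a2 varied least of the 10, by a factor of 1.13 between the highest and the lowest kidney. It read 1363, 1446 and 1509 in congenic kidneys, against 1536, 1451 and 1494 in S kidneys, a log2 difference of -0.05 (SE 0.09; 95% interval of the ratio 0.84 to 1.10). Its second probe set, at 894, 907 and 900.0 in congenic and 954, 984 and 976 in S kidneys, did not overlap between the strains. Its log2 difference was only -0.11, with adjusted p = 0.737 in limma, and it correlated with the first at only r = 0.41 over the 6 kidneys.

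Promoter sequences were matched by symbol in the RefSeq table of build GRCr8 for 5 of the 10 genes, Col1a2, Col5a1, Col5a2, Lum and Fbn1. The 250 bases before the annotated start are shown for Col1a2, a chain gene of collagen I from the pair of members with the highest r (0.86), and for Col5a2, which varied least. Each is given 5′ to 3′ on the strand of its gene, with any CCAAT box (CCAAT) or TATA box (TATAAA) found on either strand in capitals.
Col1a2, chr4:33518307-33518556, plus strand: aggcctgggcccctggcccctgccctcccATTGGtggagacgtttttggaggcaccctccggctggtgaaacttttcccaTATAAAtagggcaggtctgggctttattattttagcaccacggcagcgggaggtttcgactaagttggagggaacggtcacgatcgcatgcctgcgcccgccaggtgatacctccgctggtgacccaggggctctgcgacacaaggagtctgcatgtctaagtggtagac
Col5a2, chr9:55090152-55090401, minus strand: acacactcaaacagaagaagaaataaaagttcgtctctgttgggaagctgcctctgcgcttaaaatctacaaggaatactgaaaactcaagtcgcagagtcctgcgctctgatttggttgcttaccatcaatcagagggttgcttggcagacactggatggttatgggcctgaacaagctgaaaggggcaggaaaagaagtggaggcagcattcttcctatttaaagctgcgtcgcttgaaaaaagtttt
In Col1a2 the CCAAT box lies on the opposite strand and starts 221 bases before the annotated start, and the TATA box starts 170 bases before it. The Col5a2 window holds neither set of letters, and nor does it hold a GC box (GGGCGG). Among the other entries, Lum has a CCAAT box on the opposite strand 130 bases before its start, and Col5a1 has a GC box 127 bases before its start. The motifs did not overlap one another. Of 33469 rat promoter windows of the same length, 34% hold CCAAT, 12.9% hold TATAAA and 30.5% hold GGGCGG on either strand.

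Decorin, lumican and biglycan are small leucine-rich proteoglycans of the fibril surface, and decorin and biglycan also bind TGF-beta. Dcn read 5019, 5249 and 5656 in congenic kidneys, against 5164, 6370.2 and 5509 in S kidneys, with a log2 difference of -0.09 (SE 0.09) and a 95% interval of 0.82 to 1.07 for the ratio. Lum read 402, 361 and 319 in congenic kidneys, against 324, 362 and 283 in S kidneys, with a log2 difference of 0.16 (SE 0.17) and a 95% interval of 0.87 to 1.44 for the ratio. With 1 array left out, the difference ran from -0.16 to -8.65e-03 for Dcn, nearest 0 when S replicate 2 was dropped, and from 0.07 to 0.25 for Lum, lowest when S replicate 3 and highest when congenic replicate 3 was dropped. For both genes the strains were interleaved, and the adjusted p in limma was 0.747 for Dcn and 0.774 for Lum.

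Bgn varied most of the 10 genes, by a factor of 1.93 between the highest and the lowest kidney. It read 1585, 1880.0 and 2370.2 in congenic kidneys, against 2013, 1227 and 1627 in S kidneys. Its means were 1945 ± 397 in congenic and 1622 ± 393 in S kidneys (SD, n = 3 each), so the difference of the means was smaller than either SD. The log2 difference was 0.27 (SE 0.16), with a 95% interval of 0.95 to 1.54 for the ratio and adjusted p = 0.584 in limma. Leaving out S replicate 1 gave 0.44 and leaving out congenic replicate 1 gave 0.41, while leaving out congenic replicate 3 or S replicate 2 gave 0.12 or 0.08.

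Lox encodes lysyl oxidase, the copper enzyme that cross-links collagen and elastin. It read 157, 184 and 189.9 in congenic kidneys, against 213, 276 and 206 in S kidneys. Every congenic kidney lay below every S kidney, at 177 ± 17.5 in congenic and 231 ± 38.5 in S kidneys (SD, n = 3 each). The log2 difference was -0.38 (SE 0.22), with a 95% interval of 0.56 to 1.06 for the ratio and adjusted p = 0.567 in limma. The exact permutation test, 2-sided over the 6 kidneys, gave p = 0.1, which is the smallest value that 3 against 3 allows. The other members had exact permutation p between 0.2 and 0.8. Without S replicate 2 the log2 difference of Lox was -0.25. Its second probe set did not pass the filter on low signals. It read 133, 107 and 82.0 in congenic and 151, 106 and 127 in S kidneys, and had r = -0.09 with the first over the 6 kidneys.

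Fbn1 encodes fibrillin 1, the core of the microfibrils that carry elastin and store latent TGF-beta. It read 1128, 1016 and 1145 in congenic kidneys, against 1328, 1093 and 856 in S kidneys. S kidneys held both the highest and the lowest value, and the means were 1096 ± 69.8 in congenic and 1092 ± 236 in S kidneys (SD, n = 3 each). The log2 difference was 0.03 (SE 0.14), with a 95% interval of 0.83 to 1.25 for the ratio. The second probe set had -0.20, and the mean of both probe sets gave -0.09, so no direction can be given for this gene.

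**Figure D2:**
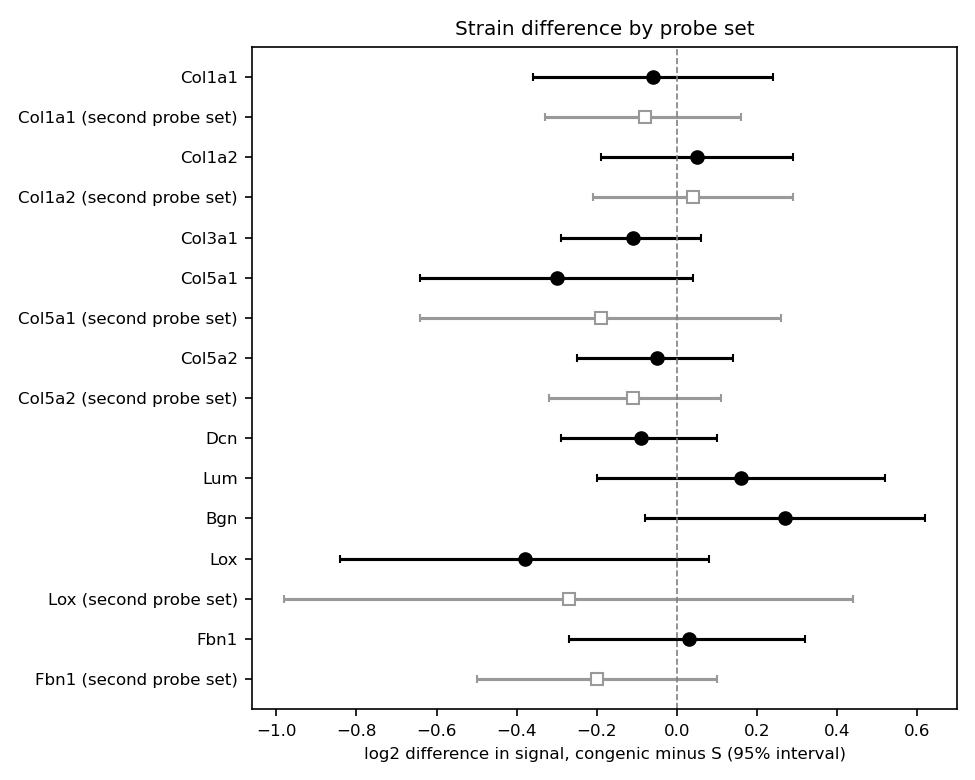
Log2 difference in signal, congenic minus S (x axis), with the 95% interval from limma, for the main probe set of each gene (filled circles) and its second probe set where there is one (open squares). Every interval includes 0; the differences of main probe sets run from -0.38 (Lox) to 0.27 (Bgn).

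The rest of the fibril machinery was read from lists of other genes. Of 19 tested genes for collagen biosynthesis and processing, 0 passed at adjusted p 0.05 in limma. Unadjusted p below 0.05 was reached by 2, both lower in congenic kidneys, where 4.84% of all genes tested were lower and 5.55% higher. The split turned to 1 lower and 3 higher with arrays centred on the median and to 1 lower and 2 higher when S replicate 1 was left out, and it was 0 and 0 when congenic replicate 2 was. Bmp1, the protease that removes the C-terminal propeptide of fibrillar procollagens, read 251, 187 and 195 in congenic kidneys, against 292, 298 and 298 in S kidneys. Its log2 difference was -0.50 (SE 0.19), adjusted p = 0.391 in limma. Serpinh1, the collagen chaperone HSP47, read 3937, 3984 and 4191 in congenic kidneys, against 4932, 4446 and 4433 in S kidneys, a log2 difference of -0.19 (SE 0.08), adjusted p = 0.438 in limma. The congenic and S values did not overlap for 5 of the 19 genes. Bmp1, Serpinh1 and Plod2 were lower in congenic kidneys (7.45% of all genes tested were). Mia3 and Ppib, at log2 differences of 0.14 and 0.11, were higher (9.59% were). The difference of Serpinh1 was -0.12 after centring on the median. P3h3, a prolyl 3-hydroxylase gene, had 0.39 (adjusted p = 0.552 in limma), and 12 of the 19 genes had a difference above 0, with a median of 0.08. Without S replicate 2, 10 of the 19 had a difference below 0 and the median was -0.02.

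Among 14 tested elastic fibre and microfibril genes, 9 had a log2 difference below 0 and the median was -0.04. With arrays centred on the median, 6 of the 14 were below 0 and the median was 0.03. None passed at adjusted p 0.05 in limma (0 of 14), and 3 reached unadjusted p below 0.05 with congenic lower, where 4.84% of all genes tested did. Leaving out congenic replicate 3 brought that count to 1, and leaving out S replicate 2 or S replicate 3 brought it to 2. Mfap4, a microfibril-associated glycoprotein gene, read 644, 531 and 526 in congenic kidneys, against 868, 751 and 789 in S kidneys. Its log2 difference was -0.50 (SE 0.13), adjusted p = 0.222 in limma, and it lay between -0.60 and -0.45 with any 1 array left out. Eln, the elastin gene, read 531, 487 and 359.9 in congenic kidneys, against 644, 537 and 796 in S kidneys, a log2 difference of -0.52 (SE 0.18), adjusted p = 0.32 in limma. The congenic values lay below all S values for 4 of the 14 genes, Mfap4, Eln, Adamtsl4 and Fbln5, beside 7.45% of all genes tested. They lay above all S values for 0, beside 9.59%. Ltbp1, which encodes a latent TGF-beta binding protein held on microfibrils, had -0.47 (SE 0.17), adjusted p = 0.350 in limma, with overlapping strains. With 1 array left out, the difference ran from -0.66 to -0.35 for Eln and from -0.63 to -0.30 for Ltbp1, both nearest 0 when congenic replicate 3 was dropped.

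The other small leucine-rich proteoglycan genes were measured for 5 of 14 listed genes above the filter. All 5 differences were below 0 (median -0.26). Of the 5, 4 were below 0 after centring on the median and when congenic replicate 1, congenic replicate 3 or S replicate 3 was left out. Their median was -0.14 without congenic replicate 3, and 1 of the 5 reached unadjusted p below 0.05 in limma, with congenic lower (4.84% of all genes tested did). That count was 0 after centring on the median and when congenic replicate 3 was left out, and 2 when congenic replicate 2 was. Podn, the podocan gene, read 158, 153 and 129.7 in congenic kidneys, against 219, 216 and 202 in S kidneys, a log2 difference of -0.54 (SE 0.22), adjusted p = 0.420 in limma. Ogn (osteoglycin) had -0.26 and Tsku (tsukushi) -0.28, with overlapping strains and adjusted p of 0.515 and 0.612 in limma. The 3 further tested probe sets of Ogn had -0.27, -0.58 and -0.70, with unadjusted p of 0.180, 0.0466 and 0.0574 in limma. The mean log2 deviation of the 5 genes was -0.14, 1.80e-03 and -0.25 in congenic replicates 1 to 3, against 0.13, 0.09 and 0.16 in S replicates 1 to 3. For Dcn, Lum and Bgn together it was -7.55e-03, 0.04 and 0.13 in congenic replicates 1 to 3, against 0.02, -0.07 and -0.12 in S replicates 1 to 3. Whether these groups of proteoglycans differ from each other was not tested.

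Fibril-associated and other interstitial collagens gave 0 of 12 at unadjusted p below 0.05 and 0 of 12 at the adjusted threshold in limma; leaving out congenic replicate 1 gave 2 at unadjusted p below 0.05. Col12a1, a collagen that decorates fibril surfaces, had a log2 difference of -0.28 (SE 0.13), adjusted p = 0.490 in limma, Col6a2 had -0.25 and Col8a2 had -0.20. A second tested probe set of Col12a1 had -0.62 with unadjusted p = 0.00988 in limma, so the unadjusted 0 of 12 counts main probe sets only. Collagen receptors likewise gave 0 of 6 at either threshold in limma, with Ddr2, a receptor kinase for fibrillar collagen, at -0.18, Ddr1 at 0.08 and the integrin subunit gene Itga1 at 0.07. The single other tested probe set of Ddr1 (-0.29) and that of Ddr2 (0.42) had the opposite sign.

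The members were then compared with each other over the 6 kidneys. Exact permutation tests were run for 5 pairs chosen by biology, and no pair passed after Benjamini-Hochberg adjustment over the 5. Col1a1 and Col1a2 had r = 0.86 (exact permutation p = 0.0222, adjusted 0.111) and rho = 0.83 (exact permutation p = 0.0583, adjusted 0.146). With the strain means removed r was 0.90, and without S replicate 1 and congenic replicate 1, the kidneys farthest from the median of Col1a1, it was 0.52 over 4 kidneys. Col1a1 and Col3a1 had r = 0.81 (exact permutation p = 0.0833, adjusted 0.208) and rho = 0.71 (exact permutation p = 0.136, adjusted 0.227), but r was 0.12 without the same 2 kidneys.

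The chains of collagen V, Col5a1 and Col5a2, had r = 0.63 (exact permutation p = 0.139, adjusted 0.231) and rho = 0.89 (exact permutation p = 0.0333, adjusted 0.146), and r was 0.68 without S replicate 1 and congenic replicate 2. After centring the arrays on the median this r was -0.01, and with the mean of all probe sets of a gene it was 0.49. Pairs of neighbouring genes gave lower values. Col3a1 and Col5a2, with 0 protein-coding genes between them in GRCr8, had r = 0.26 (exact permutation p = 0.631, adjusted 0.739) and rho = 0.14 (exact permutation p = 0.803, adjusted 0.803), and r was -0.42 without S replicate 1 and congenic replicate 3. Dcn and Lum, likewise with 0 genes between them, had r = -0.16 (exact permutation p = 0.739, adjusted 0.739) and rho = -0.31 (exact permutation p = 0.564, adjusted 0.705), and r was -0.53 without S replicate 2 and congenic replicate 1. With the strain means removed, r was 0.92 for Col1a1 with Col3a1, 0.49 for Col5a1 with Col5a2, -0.03 for Col3a1 with Col5a2 and 0.06 for Dcn with Lum.

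**Figure D3:**
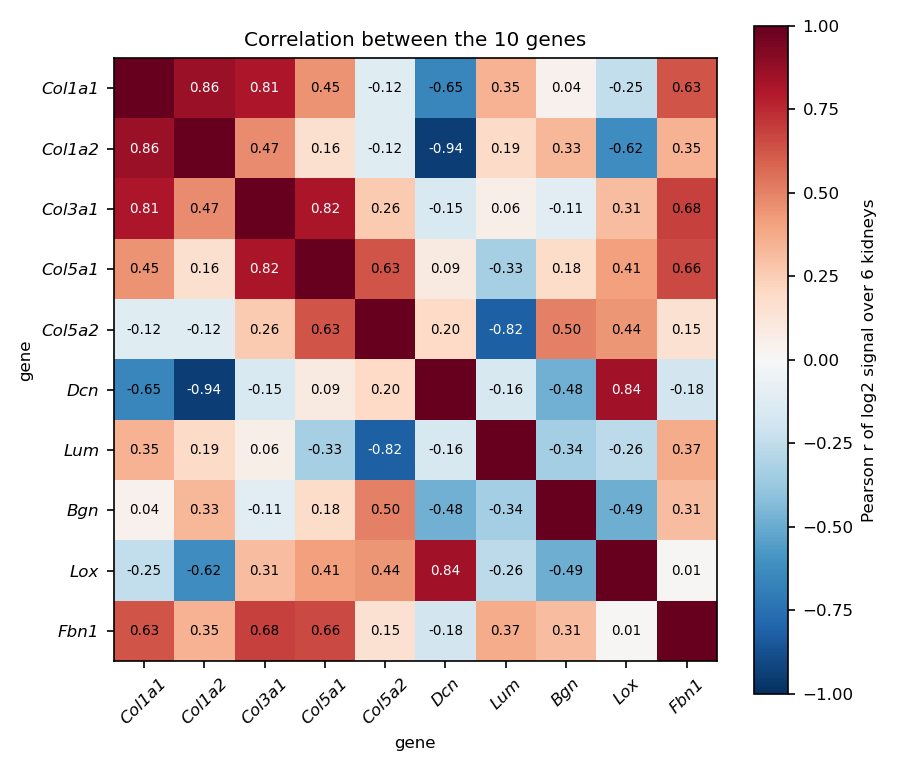
Pearson r of log2 signal over the 6 kidneys for each pair of the 10 genes (both axes list the genes; colour runs from -1 to 1 and each cell prints r). A block of positive values joins Col1a1, Col1a2, Col3a1, Col5a1 and Fbn1, from 0.16 to 0.86, whereas Dcn and Col1a2 stand at -0.94.

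Over all 45 pairs of members the median r was 0.18 with quartiles of -0.16 and 0.44, and 29 pairs were positive. Over the 43557111 pairs of tested genes, which share the same 6 arrays, the median was 2.12e-03 with quartiles of -0.36 and 0.36. An r above 0.8 was found for 4 of 45 member pairs (8.89%) and for 3.17% of all pairs. With the strain means removed, which raised the share over all pairs too, it was found for 13.3% of member pairs and 5.38% of all pairs. The 5 fibrillar collagens alone had a median of 0.46 over 10 pairs. The members' median r was -0.09 without S replicate 1 and 0.35 without S replicate 2. As a description chosen after the values were seen, Dcn ran opposite to Col1a2 (r = -0.94) and along with Lox (r = 0.84), and Col5a2 ran opposite to Lum (r = -0.82). Against the mean of the other 9 members, Col3a1 had r = 0.85 and Fbn1 0.84, while Dcn had -0.32, Lum -0.14, Lox -0.11 and Bgn -0.06.

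By kidney, the mean log2 deviation of the 5 fibrillar collagens was 0.03, -0.09 and -0.08 in congenic replicates 1 to 3, against 0.27, -0.06 and -0.06 in S replicates 1 to 3. S replicate 1 thus stood above the other 5 kidneys, and S replicates 2 and 3 lay within the congenic range. Smooth muscle markers, of which 8 of 10 were tested, deviated by 0.04, -0.07 and -0.25 in congenic replicates 1 to 3, against 0.16, -0.06 and 0.18 in S replicates 1 to 3. Acta2 in that list had a log2 difference of -0.36, Smtn -0.32 and Actg2 -0.57 (adjusted p of 0.346, 0.472 and 0.566 in limma), whereas Myl9 had 0.07, Mylk 0.04 and Tagln 0.03, so that 5 of the 8 were below 0 and 3 above. Acta2 and Smtn reached unadjusted p below 0.05 (2 of 8, against 4.84% of all genes tested with congenic lower). This count was 0 when congenic replicate 3 or S replicate 1 was left out. Fibroblast and pericyte markers deviated by -0.10, -0.09 and 0.03 in congenic replicates 1 to 3, against 0.05, 0.02 and 0.09 in S replicates 1 to 3. Their summed signal over 17 of 19 listed genes was 11268 to 12084 in congenic and 11193 to 11511 in S kidneys, with Fap, Postn, Meox1, Gli1, Pi16, Cspg4 and Tbx18 below the overall median signal in every kidney. Of 10 tested, 7 had a log2 difference below 0 and 3 above, among them Pdgfrb at -0.33, Ebf1 at -0.45 and Thy1 at -0.29, but Dpt at 0.16, Vim at 0.07 and S100a4 at 0.05, none past the adjusted threshold in limma. The other tested probe set of Thy1 had the opposite sign, 0.18. The part of these cells in the members' values was not tested.

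Adipocyte markers differed widely between kidneys within a strain. As a mean log2 deviation they stood at 0.81, -0.56 and -0.44 in congenic replicates 1 to 3, against 0.28, 0.43 and -0.52 in S replicates 1 to 3. Ucp1, the uncoupling protein of brown fat, read 751, 138 and 259 in congenic kidneys, against 451, 419.5 and 186 in S kidneys, while Fabp4 and Cidec had log2 differences of -0.09 and -0.22. Summed over all 10 listed genes the signal was 2249 to 4651 in congenic and 2512 to 3933 in S kidneys, with Lep and Plin4 below the overall median signal in every kidney. Congenic replicate 1 and S replicate 1, the highest kidneys of their strain for both collagen I chains, had 4651 and 3451, and S replicate 2, which was lowest for Col1a2, had 3933. The part of adipose tissue in the collagen values was not tested.

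**Figure D4:**
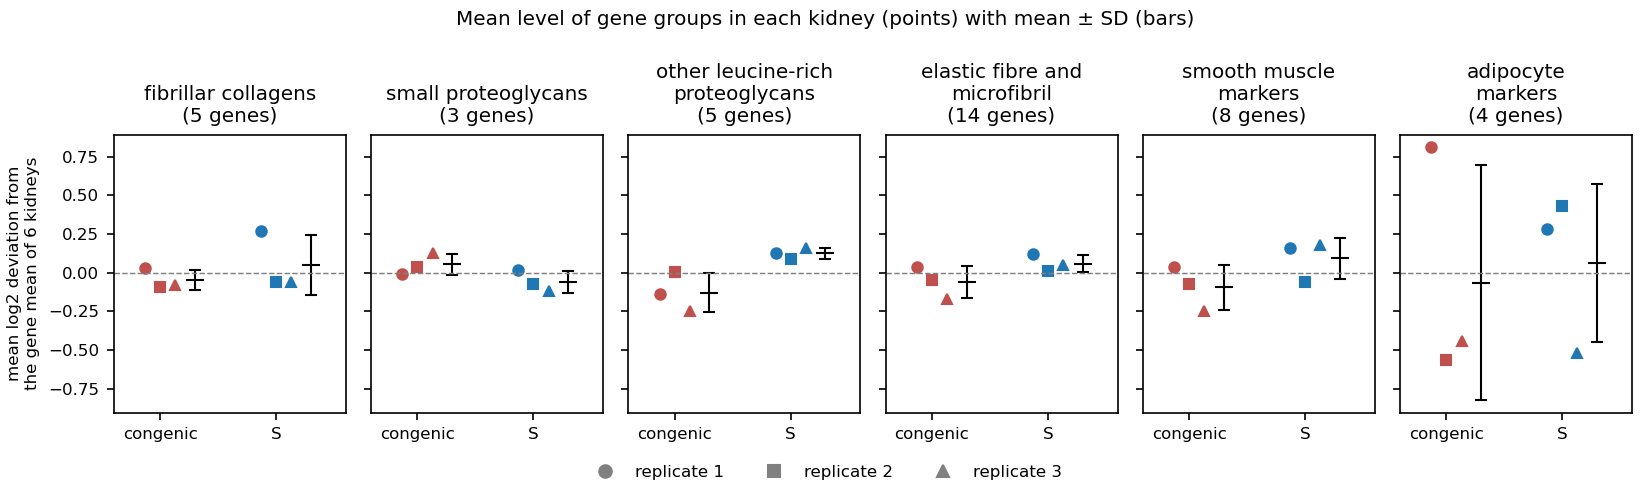
Mean log2 deviation from the gene mean of the 6 kidneys (y axis) for 6 gene groups in 3 congenic kidneys (left, red) and 3 S kidneys (right, blue); marker shape gives the replicate and black bars the mean ± SD. S replicate 1 leads the fibrillar collagens at 0.27, and the 4 tested adipocyte markers span -0.56 to 0.81 within the congenic strain.

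The remaining cell types gave these values. Urothelium markers had 0 of 6 probe sets above the filter, with Upk1a, Upk2, Krt5, Krt14 and Krt20 below the overall median signal in every kidney, and a summed signal of 585 to 659 in congenic and 601 to 692 in S kidneys. Capsule and mesothelium markers summed to 1603 to 2024 in congenic and 1696 to 1874 in S kidneys over 5 of 6 genes, with Msln, Upk1b and Calb2 below the median signal. The 2 tested genes of that list, Lrrn4 and Krt19, had log2 differences of 0.32 and -0.12. Endothelial markers summed to 12069 to 12453 in congenic and 12663 to 13362 in S kidneys, without overlap, but their mean log2 deviation, which weights genes equally, overlapped at -0.04 to 0.01 in congenic and -0.03 to 0.07 in S kidneys. Among them Vwf had a log2 difference of 0.63, Ehd3 -0.42 and Plvap -0.18. Macrophage markers summed to 19079.8 to 21438 in congenic and 17817 to 19264 in S kidneys, with overlap, and Cd163 and Itgam lay below the median signal. Their mean log2 deviation was 9.97e-03 to 0.09 in congenic and -0.09 to 6.50e-03 in S kidneys. These ranges were separated only narrowly, and 16% of single probe sets did not overlap in either direction. Of the 10 tested macrophage genes, 6 had a log2 difference above 0 and 4 below. Among them Cd68 had a log2 difference of 0.63, C1qb 0.36 and Ptprc -0.35. In the kidney epithelium list, Slc12a1 had -0.26, Umod 0.25 and Slc5a2 0.17. No gene of these lists passed the adjusted threshold in limma (0 genes). At unadjusted p below 0.05 the macrophage list had 2 of 10 genes higher and the endothelial list 1 of 9 higher. The epithelium list had 1 of 11 lower and 1 higher, beside 5.55% of all genes tested higher and 4.84% lower. The macrophage count was 0 when congenic replicate 3 or S replicate 3 was left out and 3 when congenic replicate 1 was or after centring. The endothelial list had 1 lower and 0 higher when congenic replicate 3 was left out. For epithelium, leaving out congenic replicate 3 gave 0, leaving out S replicate 1 gave 1 lower and 4 higher, and centring gave 0 lower and 5 higher. The part of these cell types in the members' values was not tested.

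The 6 tested genes whose log2 signal most resembled the mean of the 10 members over the 6 kidneys were Gchfr (r = 0.990), P2ry6 (0.989), Zdhhc23 (0.982), Oxsr1 (0.976), Hrct1 (0.976) and Itga3 (0.975). Gchfr, a regulator of the enzyme that starts tetrahydrobiopterin synthesis, read 2156, 2144 and 2185 in congenic kidneys, against 2548, 2222 and 2075 in S kidneys. Itga3, an integrin subunit gene of epithelial basement membrane adhesion, read 1184, 1183 and 1246 in congenic kidneys, against 1399.6, 1204 and 1159 in S kidneys. In each of the 6, S replicate 1 was the highest kidney. This follows from how they were picked, because the members' mean log2 deviation was itself highest in S replicate 1, at 0.18. Of 9324 genes ranked, 59 had r above 0.9 and 18 above 0.95.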

How the data were processed

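The authors deposited linear intensities, 1 per probe set and array, from GCOS 1.4 per the submitters' processing notes; for its settings and detection calls, the sources used here give nothing. All 31099 probe sets of 6 arrays were read and 57 controls left out. A floor was set at the 10th percentile, 12.3, before log2 was taken, and the authors' scaling was kept. Names came from the platform annotation, updated through Entrez identifiers with GRCr8 (20826 probe sets with 1 symbol, 436 with several, 9780 with none). Strains were compared with limma 3.58.1 (lmFit, eBayes, trend on; prior df 10.7), with Benjamini-Hochberg adjustment over 15521 probe sets. The number of arrays limits the precision, and the median SE of a log2 difference was 0.14. The procedure was tested on simulated data. Exact permutation tests used scipy 1.17.1. The members, lists, pairs and tests were chosen with earlier results of these data known. The genes named are the 10 members, up to 3 of smallest p per list and the 6 most alike; Plod2, Mia3, Ppib, Adamtsl4, Fbln5, Myl9, Mylk, Tagln, Dpt, Vim and S100a4 were chosen after their values were seen. Alternatives covered the floor, a pseudocount of 16, the filter, 3 normalisations, the variance model, array weights, a block, the probe sets and each array left out. Counts of the lists with an array left out or another normalisation were added after seeing the data.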

Additional observations from a re-analysis of the deposited data

How the results depend on the processing

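At adjusted p 0.05 in limma, 0 of 10 members were called in the main analysis and in all 16 alternatives. At unadjusted p below 0.05 the count was 0, and it became 1 lower with no variance trend (Lox) and with a block for title numbers under 10 (Col1a1, log2 difference -0.21), and 1 higher with arrays centred on the median (Bgn). With 1 array left out, either count ran from 0 to 1. The median member difference ran from -0.13 to 0.05 with 1 array left out and was 0.01 with centring, and the median r over member pairs ran from -0.09 to 0.35 with 1 array left out. Bgn, Col3a1, Col5a1, Dcn, Lox and Lum kept their sign in all 16, but Dcn came to -8.65e-03 when S replicate 2 was dropped and Lum ran from 0.07 to 0.25 with 1 array left out. With arrays centred on the median, Col1a1 reversed to 0.01 and Col5a2 to 0.02, and r reversed to -0.01 for Col5a1 with Col5a2, -9.38e-03 for Col3a1 with Col5a2 and 0.22 for Dcn with Lum. With the block, Col1a2 reversed to -0.05 and Fbn1 to -0.03, and the mean of all probe sets took Fbn1 to -0.09. With 1 array left out, the log2 difference ran from -0.18 to 0.13 for Col1a1 (0.06 and 0.13 when congenic replicate 3 or S replicate 1 was dropped), from -0.06 to 0.17 for Col1a2 (-0.02 and -0.06 when congenic replicate 1 or S replicate 2 was dropped) and from -0.14 to 0.18 for Fbn1 (-5.89e-03 and -0.14 when congenic replicate 3 or S replicate 3 was dropped). Likewise r ran from -0.59 to 0.51 for Col3a1 with Col5a2, lowest when S replicate 1 was dropped, and from -0.76 to 0.28 for Dcn with Lum, highest when congenic replicate 1 was dropped. The cause was not tested. Centring moved the median difference of all probe sets tested to 0.06, against -8.69e-03. No paired analysis was possible because the labels give the strains no shared replicate numbers. Without detection calls, low signals such as the second Lox probe set could not be separated from background.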
